A study of Mus musculus with 16 samples.

Results

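*Pde4d*, *Pde4a*, *Pde4b*, *Pde4c*, *Pde7a*, *Pde7b*, *Pde3b* and *Pde8a* encode phosphodiesterases, the enzymes that break down the second messenger cyclic AMP. These 8 of the 50686 genes in the count files were chosen by enzyme class together with a measured value. The list was built around *Pde4d*, whose level was lower in Cdk8-ko than in wild-type lines under both treatments in these same libraries. Genotype values of the 8 genes are therefore given as a description with no test, and tests of them are given only for Senexin B within lines, which the rule of choice did not use. Earlier results of these data were known when the genes were chosen, and the fall in *Pde4a* with Senexin B was seen before its test. The interaction of Senexin B with genotype is tested for the other 7 genes, since for *Pde4d* it is the difference of the values that chose it. All 8 genes were found in each of the 16 files and passed the filter on low counts in every comparison.

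Cyclic AMP is made by adenylyl cyclases, mostly when a hormone, prostaglandin or neuropeptide engages a receptor coupled to the stimulatory G protein Gs. It activates protein kinase A, which can switch on transcription through CREB, and the EPAC exchange factors. Phosphodiesterases end the signal, and in lymphocytes a raised cyclic AMP level is known to restrain proliferation and cytokine production. The PDE4, PDE7 and PDE8 families are selective for cyclic AMP, while PDE3 enzymes also bind cyclic GMP.

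The study asked how transcription differs between loss of the CDK8 protein and inhibition of its kinase activity. CDK8 is a kinase of the Mediator complex, and Senexin B inhibits CDK8 and its paralogue CDK19. RNA was sequenced from bone marrow pro-B lines of C57BL/6N mice, each made by retroviral transformation with BCR-ABL1p185. There were 4 wild-type lines, which the study's methods give as *Cdk8* fl/fl, and 4 Cdk8-ko lines, given as *Cdk8*Δ/Δ *Vav-Cre*.

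Each line was sampled after 48 h with 0.01% DMSO and after 48 h with 1 µM Senexin B, which gave 4 groups of 4 libraries. Every line was derived individually, so lines can differ in more than their genotype or treatment. *Vav-Cre* is active throughout blood formation, so the Cdk8-ko lines arose from cells that already carried the deletion. Library totals ran from 13145876 to 18349425 counts, with a median of 15473664. Levels are given as CPM, a gene's counts scaled to a common library size with edgeR's TMM factors, and as RPKM, which is CPM per kilobase of exon, where different genes are compared.

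*Cdk8* itself was read first. It had 68.7, 61.8, 63.3 and 65.8 CPM in wild-type lines 1 to 4 with DMSO and 89.4, 56.3, 56.8 and 55.2 with Senexin B. In Cdk8-ko lines it had 35.3, 52.1, 47.1 and 42.8 CPM with DMSO and 43.9, 61.7, 42.9 and 41.2 with Senexin B. With DMSO every Cdk8-ko line lay below every wild-type line, whereas with Senexin B the groups overlapped because Cdk8-ko line 2 exceeded 3 wild-type lines. The log2 difference was -0.55 (SE 0.14; edgeR, adjusted p 0.897) with DMSO and -0.44 (SE 0.22; edgeR, adjusted p 1) with Senexin B. Whole-gene counts include exons outside the deleted part, so they follow the labels in direction but cannot show the deletion.

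All 10 B-lineage markers were abundant, with summed levels of 5940 to 9335 CPM per library. The B-cell receptor gene *Cd79b* was lower with Senexin B in 8 of 8 lines (log2 -0.38, SE 0.08; edgeR with the line as a block, adjusted p 0.0308; 0.854 without), under the fold limit of 1 used below. The 10 markers did not move together: their median difference in that fit was -0.01, with 60% lower, and *Cd79b* alone had an unadjusted p under 0.05. Within genotypes the block gave 2 markers higher and 0 lower at that limit in wild-type lines, and 0 higher and 1 lower in Cdk8-ko lines. Of 6 T and NK cell markers 5 never exceeded 20 counts, and *Cd3g* and *Ncr1* were at 0 in every library. The exception was *Klrb1c*, which reached 81.4 CPM in Cdk8-ko line 4 with Senexin B. Of 8 myeloid markers 7 never exceeded 20 counts, with *Elane*, *S100a8* and *S100a9* at 0, and *Lyz2* reached 24.6 CPM in Cdk8-ko line 1 with DMSO. The erythroid and megakaryocyte list had 5 of 6 genes at or below 20 counts, with *Pf4* at 0. The stromal list had 3 of 5, with *Col3a1* at 0, while the endothelial and hematopoietic gene *Pecam1* ran from 48.5 to 497 CPM.

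*Pde4d* (ENSMUSG00000021699.17), a member of the PDE4 family that shapes cyclic AMP near receptors and kinase scaffolds, spans chromosome 13 from 108449948 to 109953461 on the plus strand of GRCm38. In wild-type lines 1 to 4 it had 30.2, 31.6, 31.3 and 36.8 CPM with DMSO and 29, 40, 35.9 and 48.1 with Senexin B. In Cdk8-ko lines it had 16.8, 21.9, 20 and 22.8 CPM with DMSO and 17, 23, 19.8 and 22.3 with Senexin B. All 8 Cdk8-ko libraries lay below all 8 wild-type libraries, since the highest Cdk8-ko value was 23 CPM and the lowest wild-type value 29. The highest Cdk8-ko line stood at 0.754 of the lowest wild-type line with DMSO and at 0.791 with Senexin B. In bulk RNA, fewer cells of a type and less RNA per cell cannot be told apart.

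The group means of *Pde4d* were 32.5 ± 2.97 CPM (SD, n = 4) in wild-type DMSO, 38.3 ± 7.98 in wild-type Senexin B, 20.4 ± 2.61 in Cdk8-ko DMSO and 20.5 ± 2.73 in Cdk8-ko Senexin B. The log2 difference between genotypes was -0.67 (SE 0.15), or 0.629-fold, with DMSO and -0.90 (SE 0.20), or 0.536-fold, with Senexin B. These differences chose the gene and are no finding about it. Within lines, *Pde4d* was higher with Senexin B in 5 of 8 lines, and each of the 3 lines in which it was lower moved by at most 0.06 on the log2 scale. The Senexin B difference over 8 lines was 0.12 (SE 0.12; edgeR, adjusted p 1). Without the Senexin B library of wild-type line 4 it was 0.05.

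**Figure D1:**
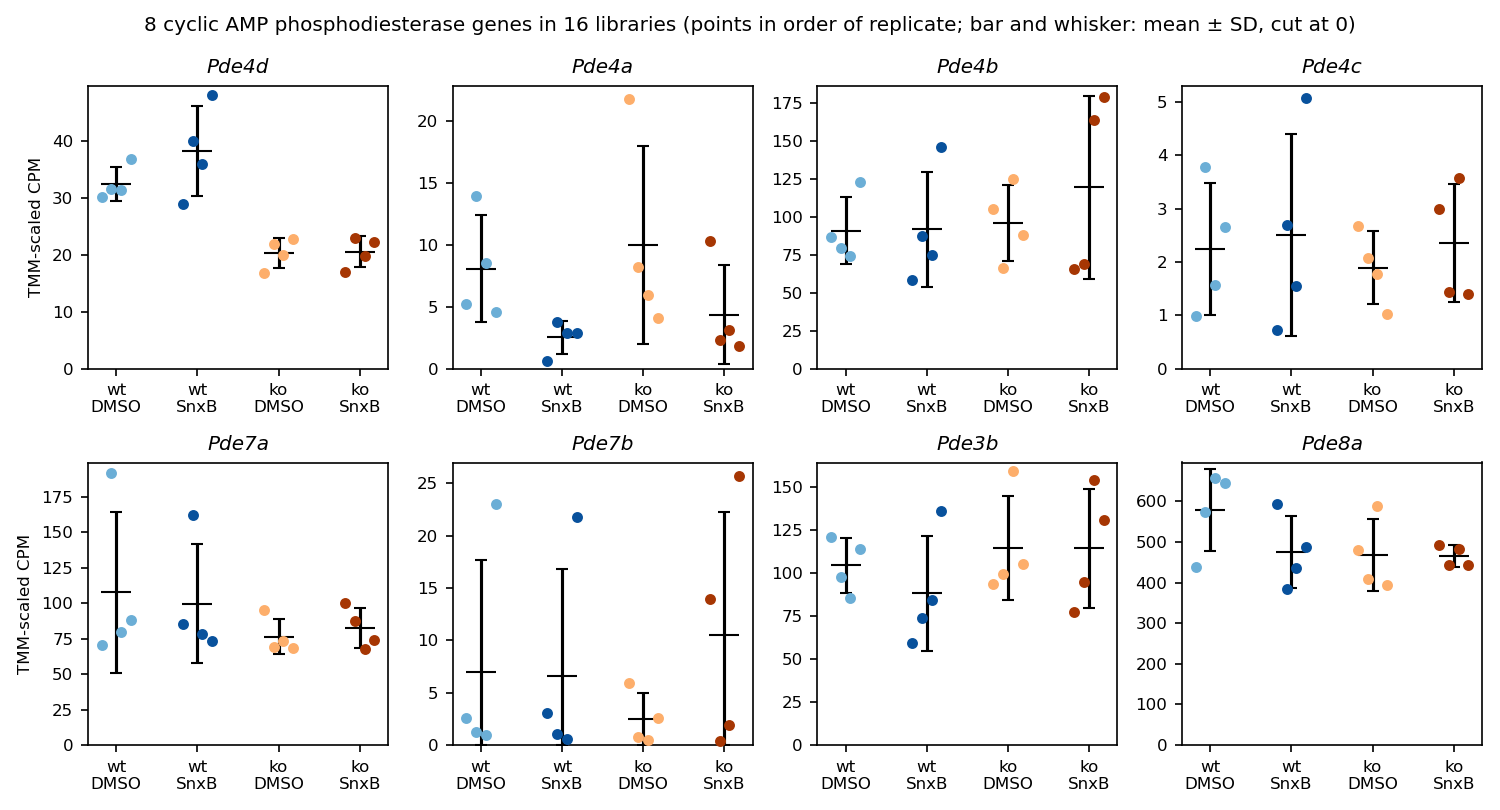
TMM-scaled CPM of the 8 phosphodiesterase genes in 16 libraries, by genotype and treatment (wt, wild-type; ko, Cdk8-ko; SnxB, Senexin B). Points are lines 1 to 4 from left to right, and bars with whiskers are the mean and SD of 4 lines, with whiskers cut at 0. *Pde4d* lies at 29 CPM or higher in every wild-type library and at 23 CPM or lower in every Cdk8-ko library.

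Of the 8 genes, *Pde4d* alone had every Cdk8-ko line below every wild-type line with DMSO, and the same held with Senexin B. Among all genes tested the share with that order was 1.66% with DMSO, 0.453% with Senexin B and 0.0704% under both treatments. The 9 genes with that order under both were *Pde4d*, *Fopnl*, *Slc15a2*, *Rfx2*, *Mtmr10*, *Neurl1b*, *5330438D12Rik*, *B3galt5* and *Gm26947*. Because this order chose *Pde4d*, nothing is read from the count. For the other 7 genes the genotype groups overlapped under both treatments, with log2 differences from -1.50 (*Pde7b*, SE 1.19) to 0.31 (*Pde4a*, SE 0.57) with DMSO. With Senexin B they ran from -0.27 (*Pde7a*, SE 0.28) to 0.80 (*Pde4a*, SE 0.69). Several of these values depended on single lines: *Pde7a* was -0.06 with DMSO and 0.07 with Senexin B without wild-type line 2, *Pde7b* with DMSO was 0.63 without wild-type line 4, and without Cdk8-ko line 1 *Pde4a* was -0.41 with DMSO and -0.06 with Senexin B. A full call needed an absolute log2 difference over 1 together with a p under 0.05 after adjustment over all genes. Between genotypes edgeR called 0.00759% of all genes tested with DMSO and 0% with Senexin B, and no such call is used for the 8 genes.

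*Pde4a* (ENSMUSG00000032177.17), the PDE4 family member on chromosome 9 from 21165714 to 21213248, gave the clearest difference that the rule of choice had not used. In wild-type lines 1 to 4 it had 5.2, 14, 8.58 and 4.55 CPM with DMSO and 0.648, 3.77, 2.84 and 2.85 with Senexin B. In Cdk8-ko lines it had 21.8, 8.21, 5.97 and 4.05 CPM with DMSO and 10.3, 2.27, 3.1 and 1.81 with Senexin B. *Pde4a* was lower with Senexin B in 8 of 8 lines, although the lines differed so much in level that the treatment groups overlapped in the Cdk8-ko genotype. In the wild-type genotype the highest Senexin B library, at 3.77 CPM, lay below the lowest DMSO library, at 4.55. The share of all genes with that order was not counted, so nothing is read from it. Cdk8-ko line 1 had the highest level of the 8 lines under each treatment.

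Within lines the Senexin B to DMSO ratio of *Pde4a* was 0.125, 0.269, 0.331 and 0.626 in wild-type lines 1 to 4. In Cdk8-ko lines 1 to 4 it was 0.472, 0.276, 0.519 and 0.447. The lowest ratio, in wild-type line 1, rested on 90 counts with DMSO and 9 with Senexin B, and the highest *Pde4a* count in any library was 349. The share of all tested genes that were lower in all 8 lines was 2.59%.

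Over 8 lines the Senexin B difference of *Pde4a* was -1.43 (SE 0.47) on the log2 scale, and it did not pass in the planned fit without a block (edgeR, adjusted p 0.795). With the line as a block, so that each line was compared with itself, it was -1.47 (SE 0.21), or 0.362-fold, and passed (edgeR, adjusted p 0.00653). DESeq2, run without the block, gave an adjusted p of 0.255. In the fit with the block 1 of the 8 genes passed, against 0.946% of all genes tested, and *Pde4a* ranked 31 of 14164 genes by p. Without the block 0 of the 8 passed (edgeR, background 0%), where 1 of the 8, *Pde4a*, had an unadjusted p under 0.05, beside 688 of 14164 genes. DESeq2 called 0 of the 8 and 17 of 29701 genes. When both libraries of each line were left out in turn, the blocked difference stayed between -1.57 and -1.32 and passed each time, with adjusted p from 0.00377 to 0.0243 (edgeR).

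Within genotypes *Pde4a* did not pass. The difference was -1.66 (SE 0.56; edgeR, adjusted p 1) in wild-type lines and -1.19 (SE 0.72; edgeR, adjusted p 1) in Cdk8-ko lines. The Cdk8-ko value depended on line 1, with -0.47 without its DMSO library and -2.07 without its Senexin B library. With the block the 2 values were -1.70 (SE 0.34; edgeR, adjusted p 0.103) and -1.24 (SE 0.20; edgeR, adjusted p 0.131). The interaction, which asks whether the Senexin B difference depended on genotype, was 0.48 (SE 0.94; edgeR, adjusted p 1) and 0.46 (SE 0.42; edgeR, adjusted p 0.991) with the block, so no genotype dependence was detectable. Without the Senexin B library of Cdk8-ko line 1 it changed sign, to -0.38 (no block).

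In the myeloid marker list 1 of 8 genes, *Lyz2*, was tested for Senexin B over 8 lines, and 0 were called. The summed level of the list was lower with Senexin B, as *Pde4a* was, except in wild-type line 2 and Cdk8-ko line 3. Its 8 genes summed to 1.5, 0.504, 4.61 and 7.98 CPM in wild-type lines 1 to 4 with DMSO and 0.648, 0.655, 4.39 and 6.08 with Senexin B. In Cdk8-ko lines they summed to 25.1, 3.2, 0.635 and 2.28 CPM with DMSO and 7.93, 2.06, 0.789 and 1.67 with Senexin B. The most abundant gene of the list was *Lyz2*, with 24.6 of the 25.1 CPM in Cdk8-ko line 1 with DMSO but 0.164 of the 0.655 CPM in wild-type line 2 with Senexin B. It was highest in the same Cdk8-ko line 1 and lower with Senexin B in 7 of 8 lines (log2 -0.83, SE 0.26; edgeR with the block, adjusted p 0.121). *Elane*, *S100a8* and *S100a9* were at 0 in every library. The part of these genes in the *Pde4a* result was not tested.

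**Figure D2:**
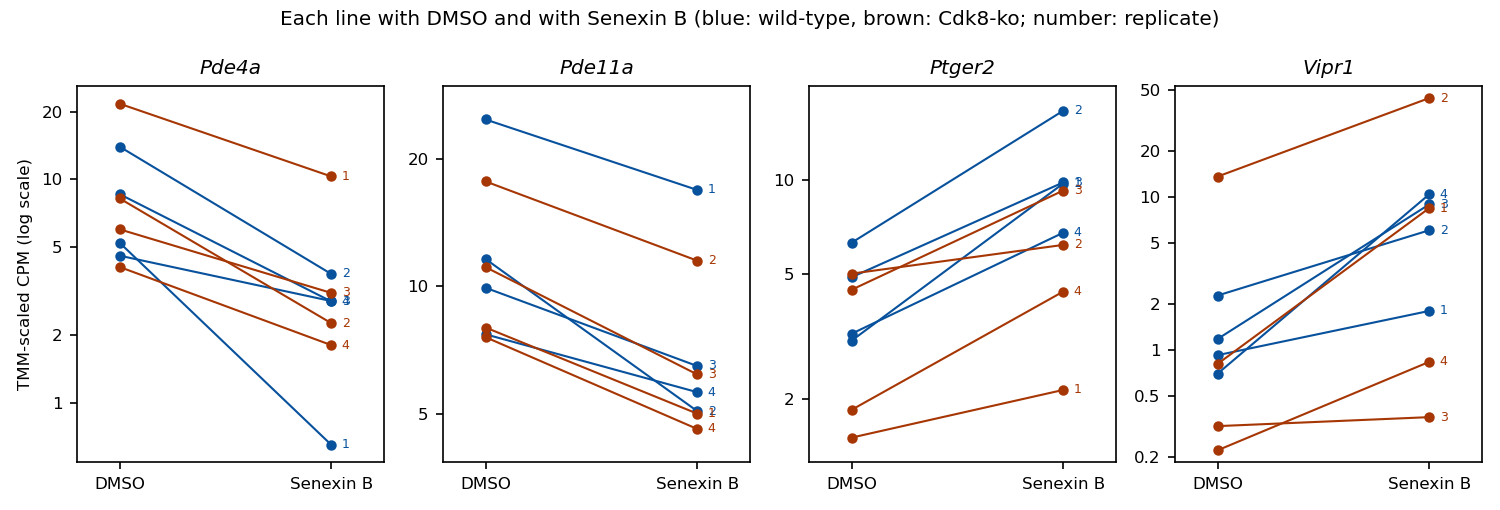
TMM-scaled CPM (log scale) of each line with DMSO and with Senexin B, for *Pde4a*, *Pde11a*, *Ptger2* and *Vipr1*. Blue lines are wild-type, brown lines Cdk8-ko, and the number is the replicate. *Pde4a* and *Pde11a* are lower with Senexin B in 8 of 8 lines, and *Ptger2* and *Vipr1* are higher in 8 of 8.

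*Pde4b*, the PDE4 member best known for its part in inflammatory signalling by leukocytes, ran from 58.4 to 179 CPM over the 16 libraries. It was higher with Senexin B in 6 of 8 lines and lower in the line 1 of each genotype. The largest increase was in Cdk8-ko line 4, from 88.1 to 179 CPM, and the largest decrease in Cdk8-ko line 1, from 105 to 65.3. Over 8 lines the difference was 0.16 (SE 0.25; edgeR, adjusted p 1). *Pde4c*, the remaining PDE4 member, had 10 to 66 counts per library, or 0.72 to 5.08 CPM, and was higher in 4 of 8 lines (log2 0.24, SE 0.39; edgeR, adjusted p 1). Without the Senexin B library of wild-type line 4 these differences were 0.03 for *Pde4b* and -0.03 for *Pde4c*.

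The PDE7 enzymes are cyclic AMP phosphodiesterases insensitive to the classical PDE4 inhibitor rolipram. *Pde7a*, which is expressed widely in lymphocytes, had 70.6, 192, 79.8 and 87.9 CPM in wild-type lines 1 to 4 with DMSO and 85.1, 162, 78 and 73.5 with Senexin B. Wild-type line 2 stood above all other lines under both treatments, and the 8 Cdk8-ko libraries kept to 68 to 100 CPM. *Pde7a* was higher with Senexin B in 4 lines and lower in 4, and its difference over 8 lines was 0.00 (SE 0.22; edgeR, adjusted p 1). It was -0.15 without the Senexin B library of wild-type line 2 and 0.21 without its DMSO library.

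*Pde7b* varied most between lines. It had 2.54, 1.26, 0.912 and 23 CPM in wild-type lines 1 to 4 with DMSO and 3.1, 1.06, 0.535 and 21.8 with Senexin B. In Cdk8-ko lines it had 5.93, 0.752, 0.508 and 2.58 CPM with DMSO and 13.9, 0.413, 1.88 and 25.7 with Senexin B. Wild-type line 4 was high with and without Senexin B, whereas Cdk8-ko line 4 was high with Senexin B, at 9.98 times its DMSO level. The highest library stood at 62.3 times the lowest.

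The Senexin B difference of *Pde7b* was 2.10 (SE 1.24; edgeR, adjusted p 1) in Cdk8-ko lines, where 3 of 4 lines were higher, and -0.06 (SE 1.35; edgeR, adjusted p 1) in wild-type lines, where 1 of 4 was higher. Over 8 lines it was 1.01 (SE 1.04; edgeR, adjusted p 1), with 0.34 without the Senexin B library of wild-type line 4 and 2.08 without its DMSO library. The interaction of genotype and Senexin B was 2.16 (SE 1.96; edgeR, adjusted p 1), with 0.03 without the DMSO library of wild-type line 4 and 4.24 without its Senexin B library. The wild-type value was 2.08 without that DMSO library and -2.14 without that Senexin B library, and the Cdk8-ko value was 1.14 without the Senexin B library of line 4. The most abundant T and NK cell marker, *Klrb1c*, had 81.4 CPM in Cdk8-ko line 4 and 3.77 in wild-type line 4 with Senexin B. The 6 T and NK cell markers summed to 1.62, 6.23, 1.29 and 3.78 CPM in wild-type lines with DMSO and 0.216, 2.95, 1.87 and 3.85 with Senexin B. They summed to 1.06, 0.752, 5.21 and 20.7 CPM in Cdk8-ko lines with DMSO and 0.632, 0.481, 20.7 and 81.5 with Senexin B. Their part in the *Pde7b* values was not tested.

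*Pde3b*, the enzyme best known for mediating insulin's lowering of cyclic AMP in fat and liver, ran from 59.2 to 159 CPM. It was lower with Senexin B in 6 of 8 lines, by most in wild-type line 1, from 121 to 59.2 CPM (over 8 lines log2 -0.12, SE 0.19; edgeR, adjusted p 1). That difference was -0.24 without the Senexin B library of wild-type line 4 and -0.03 without the DMSO library of Cdk8-ko line 3. *Pde8a*, a high-affinity enzyme that clears cyclic AMP at low concentrations, had 437, 574, 658 and 646 CPM in wild-type lines 1 to 4 with DMSO and 593, 384, 436 and 487 with Senexin B. In Cdk8-ko lines it had 480, 409, 589 and 393 CPM with DMSO and 492, 442, 483 and 442 with Senexin B. It was lower with Senexin B in 3 of 4 wild-type lines and higher in 3 of 4 Cdk8-ko lines, and the groups overlapped. Its difference over 8 lines was -0.15 (SE 0.12; edgeR, adjusted p 1), and its interaction with genotype was 0.28 (SE 0.24; edgeR, adjusted p 1).

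Counted by genotype, edgeR called 0 of the 8 genes for Senexin B in wild-type lines (background 0%), where 1, *Pde4a*, had an unadjusted p under 0.05, beside 493 of 12989 genes. DESeq2 called 20 of 27120 genes there and 0 of the 8, of which *Pde7b* was given no p. In Cdk8-ko lines edgeR also called 0 of 8 (background 0%), with 0 at an unadjusted p under 0.05, beside 243 of 13285 genes. DESeq2 called 0 of the 8 and 0 of 27574 genes in Cdk8-ko lines, and gave *Pde7b* an unadjusted p of 0.0466 (log2 2.11, SE 1.06; DESeq2, adjusted p 1), beside 320 genes at an unadjusted p under 0.05. With the line as a block the counts remained 0 of 8 in wild-type lines, against 0.346% of all genes, and 0 of 8 in Cdk8-ko lines, against 0.0527%. Unadjusted p was then under 0.05 for *Pde4a* in both genotypes and for *Pde7b* in Cdk8-ko lines (log2 1.76, SE 0.53; edgeR, adjusted p 0.325), beside 1343 of 12989 genes in wild-type and 1368 of 13285 in Cdk8-ko lines. The interaction gave 0 of the 7 genes other than *Pde4d* without the block (edgeR, background 0%), with 0 at an unadjusted p under 0.05, beside 67 of 14164 genes. DESeq2 called 0 of the 7 and 0 of 29727 genes. With the block it also gave 0 of 7 (background 0%), and *Pde7b* had an unadjusted p under 0.05 (log2 1.84, SE 0.65; edgeR, adjusted p 0.991), beside 459 of 14164 genes. The median Senexin B difference of the 8 genes over 8 lines was 0.06, beside 0.01 over all genes tested.

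Per length, *Pde8a* was by far the most abundant of the 8 genes, at 143 ± 25.1 RPKM (SD, n = 4) in wild-type DMSO and 115 ± 6.63 in Cdk8-ko Senexin B. It made up 78.5 ± 4.21% of the summed RPKM of the 8 genes in wild-type DMSO, and 76.3 ± 6.79%, 76.7 ± 1.13% and 75.2 ± 4.04% in wild-type Senexin B, Cdk8-ko DMSO and Cdk8-ko Senexin B. Its mean RPKM over 16 libraries lay above that of 97.8% of the 14164 genes tested. *Pde7a*, *Pde3b* and *Pde4b* followed, at 13.9 ± 7.33, 11.5 ± 1.76 and 8.61 ± 2.09 RPKM in wild-type DMSO. Neighbours among these 3 overlapped in every group. Within the same library *Pde3b* lay above *Pde4b* in 14 of 16, *Pde7a* above *Pde4b* in 11 and *Pde7a* above *Pde3b* in 8.

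*Pde4d* had rank 5 of 8 in all 4 groups, at 2.71 ± 0.247 RPKM in wild-type DMSO, 3.19 ± 0.665 in wild-type Senexin B, 1.7 ± 0.218 in Cdk8-ko DMSO and 1.71 ± 0.227 in Cdk8-ko Senexin B. In wild-type groups every *Pde4d* value lay above every value of the next gene, and in Cdk8-ko groups the ranges of *Pde4d* and the next gene overlapped. Within the same library *Pde4d* lay above *Pde4a* in 15 of 16 and above *Pde7b* in 15. *Pde4a*, *Pde7b* and *Pde4c* were lowest, at 1.06 ± 0.563, 0.558 ± 0.864 and 0.405 ± 0.223 RPKM in wild-type DMSO. Neighbours among these 3 overlapped in every group except that *Pde4a* lay above *Pde4c* in all 4 lines of Cdk8-ko DMSO without overlap. With Senexin B *Pde4a* had the lowest group mean of the 8 in wild-type lines, at 0.33 ± 0.173 RPKM, while by median *Pde7b* was lower, at 0.167 against 0.371.

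**Figure D3:**
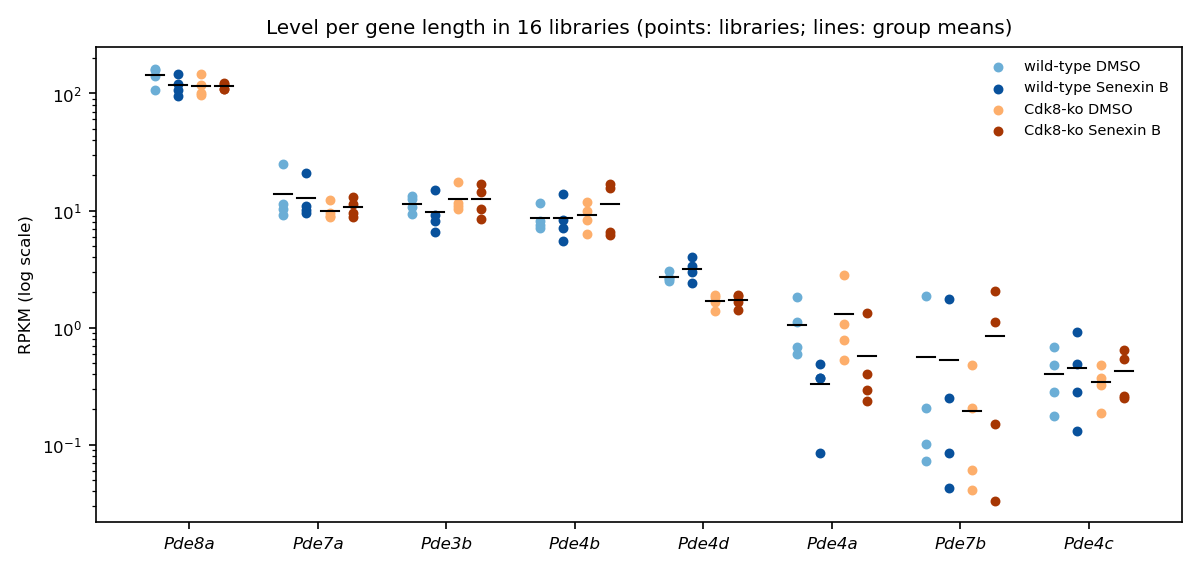
RPKM (log scale) of the 8 genes in 16 libraries, ordered by mean level. Points are libraries, coloured by group, and short lines are group means of 4 lines. *Pde8a* lies at 94.9 RPKM or higher in every library, and *Pde7b* runs from 0.0332 to 2.07.

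Around the 8 genes, 106 other genes of cyclic AMP signalling were listed by function, and 74 of them had enough counts to test over 8 lines. With the line as a block 2 were higher with Senexin B and 0 lower under the full call (edgeR), while 7 higher and 9 lower had an unadjusted p under 0.05. Among all 14164 genes tested 134 were called, and 1104 higher and 1220 lower had an unadjusted p under 0.05. Without the block edgeR called 0, with 3 higher and 3 lower at an unadjusted p under 0.05 (362 and 326 of all genes), and DESeq2 called 0. The median difference of the 74 with the block was -0.04, beside 0.00 over all genes tested.

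Both called genes encode receptors that couple to Gs, from a list of 14 of which 10 were tested. *Ptger2*, a prostaglandin E2 receptor, had 3.06, 6.29, 4.88 and 3.22 CPM in wild-type lines 1 to 4 with DMSO and 9.72, 16.6, 9.8 and 6.77 with Senexin B. In Cdk8-ko lines it had 1.5, 5.01, 4.45 and 1.84 CPM with DMSO and 2.13, 6.19, 9.23 and 4.39 with Senexin B. It was higher in 8 of 8 lines, and the wild-type groups did not overlap. The shares of all genes higher in 8 of 8 lines, or without such overlap, were not counted. The difference was 1.04 (SE 0.16) with the block (edgeR, adjusted p 0.0082), against an adjusted p of 0.786 without it.

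*Vipr1*, a receptor for vasoactive intestinal peptide, was also higher in 8 of 8 lines. It went from 0.925, 2.27, 1.18 and 0.7 CPM with DMSO to 1.8, 6.06, 8.94 and 10.4 with Senexin B in wild-type lines 1 to 4. In Cdk8-ko lines it went from 0.811, 13.6, 0.318 and 0.221 CPM to 8.45, 44.3, 0.364 and 0.836. Cdk8-ko line 2 was highest under both treatments, and line 3 held 5 and 6 counts. The difference was 2.19 (SE 0.34) with the block (edgeR, adjusted p 0.0084), against an adjusted p of 0.962 without it. The most abundant listed receptor per length, *Ptger4*, another prostaglandin E2 receptor, was near its DMSO level (log2 -0.11, SE 0.23; edgeR, adjusted p 1).

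Of 8 other phosphodiesterases that hydrolyse cyclic AMP, 5 were tested and 0 called. *Pde11a*, which hydrolyses both cyclic AMP and cyclic GMP, had 24.8, 11.6, 9.92 and 7.7 CPM in wild-type lines 1 to 4 with DMSO and 16.9, 5.07, 6.48 and 5.62 with Senexin B. In Cdk8-ko lines it had 7.99, 17.7, 11.1 and 7.58 CPM with DMSO and 5, 11.5, 6.19 and 4.6 with Senexin B. It was lower in 8 of 8 lines while the groups overlapped, and its difference of -0.71 (SE 0.11) with the block passed the p limit but not the fold limit (edgeR, adjusted p 0.0082; 1 without the block). *Pde1b*, the most abundant of that list at 22.1 RPKM, differed by -0.08 (SE 0.27; edgeR, adjusted p 1). Of the 8 phosphodiesterases selective for cyclic GMP or of the photoreceptor family, 2 were tested and 0 called, and *Pde6d* was the most abundant at 35.1 RPKM.

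Downstream, 0 of 8 tested subunits and inhibitors of protein kinase A were called. *Prkacb*, a catalytic subunit, was lower in 8 of 8 lines at -0.41 (SE 0.08; edgeR with the block, adjusted p 0.0264; 0.552 without), under the fold limit. Among 8 CREB family members and coactivators 0 were called. *Crtc1*, a CREB coactivator, was lower in 8 of 8 lines at -0.34 (SE 0.08; edgeR with the block, adjusted p 0.0389; 0.948 without), also under the fold limit. With the block over 8 lines 2 listed genes were higher and 3 lower at an adjusted p under 0.05 (edgeR), beside 162 higher and 211 lower of 14164 genes. None of the other listed genes had an adjusted p under 0.05 with or without the block over 8 lines. Lists with no such gene were those of cyclic GMP phosphodiesterases, with 2 tested, 4 adenylyl cyclases, 5 Gs and Gi alpha subunits, 2 EPAC and Popeye cyclic AMP receptors, 9 A-kinase anchoring proteins, 10 PDE4 partners and 11 target genes that respond to cyclic AMP.

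Within genotypes edgeR called 0 of 71 listed genes tested in wild-type lines and 0 of 70 in Cdk8-ko lines, with 6 and 1 at an unadjusted p under 0.05, beside 493 of 12989 and 243 of 13285 genes. With the block both counts remained 0, beside 45 of 12989 and 7 of 13285 genes called. At an unadjusted p under 0.05 the block gave 10 and 8 listed genes, beside 1343 and 1368 of all genes. DESeq2 called 1 in wild-type lines, *Vipr1* (log2 2.41, SE 0.58; DESeq2, adjusted p 0.0269), beside 20 of 27120 genes, and 0 in Cdk8-ko lines. The interaction gave 0 of 74 with edgeR and 0 with DESeq2, as it did over all genes, and 0 at an unadjusted p under 0.05, beside 67 of 14164 genes. With the block it again gave 0, and 3 genes had an unadjusted p under 0.05, beside 459 of 14164 genes: the cyclase *Adcy9* (log2 0.63, SE 0.25), the kinase subunit *Prkar1b* (1.57, SE 0.66) and the nuclear receptor *Nr4a3* (1.54, SE 0.59; edgeR, adjusted p 0.991 for each). In Cdk8-ko lines *Prkar1b* had at most 10 counts except in line 3 with Senexin B (46), and *Nr4a3* at most 14 except in line 2 (21 with DMSO, 62 with Senexin B).

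Genotype comparisons of the 106 genes gave 0 calls under either treatment in edgeR and in DESeq2, which called 32 of 27306 genes with DMSO and 10 of 27645 with Senexin B. At an unadjusted p under 0.05 edgeR gave 1 higher and 1 lower of 69 tested with DMSO, beside 314 higher and 387 lower of 13174 genes. The higher gene was *Fosb*, an immediate early transcription factor (log2 1.76, SE 0.56; edgeR, adjusted p 0.897), and the lower was *Ndel1*, a cytoskeletal protein of the PDE4 partner list (log2 -0.37, SE 0.16; edgeR, adjusted p 0.897). *Fosb* had 10.6 ± 5.15 CPM (SD, n = 4) in wild-type DMSO and 36 ± 23.1 in Cdk8-ko DMSO, and the groups overlapped. With Senexin B it was the only listed gene of 68 with an unadjusted p under 0.05 (log2 0.93, SE 0.38; edgeR, adjusted p 1), beside 202 of 13010 genes.

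*Pde4d* has *Depdc1b* 42.2 kb before it and *Gapt* 399 kb after it as the nearest tested genes outside it on chromosome 13. Neither these nor *Elovl7*, *Ercc8*, *Plk2* and *Gpbp1* further out passed in the genotype comparisons. The DMSO differences were 0.07 (SE 0.24) for *Depdc1b*, -0.36 (SE 0.48) for *Elovl7* and -0.34 (SE 0.24) for *Ercc8* on the near side. On the far side they were 1.32 (SE 1.58) for *Gapt*, -1.50 (SE 0.55) for *Plk2* and -0.26 (SE 0.16) for *Gpbp1*, each with an edgeR adjusted p of 0.897 or higher. *Rps3a3*, which lies inside *Pde4d* on the same strand and shares no exon bases with it, differed by 0.21 (SE 0.29).

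Over the 16 libraries and 9875 genes with a mean of at least 5 CPM, the genes whose log2 CPM was most like that of *Pde4d* were *Slc15a2* (r 0.89), *Kif3c* (0.86), *Spp1* (0.86), *Rfx2* (0.85) and *Tapt1* (0.84). Most opposite were *Plcb2* (r -0.85), *Jmjd8* (-0.83), *Acvr1* (-0.83), *Napepld* (-0.81) and *Mlh3* (-0.78). These correlations include the genotype difference that chose *Pde4d*, and 2 libraries share each line. After removing each genotype's mean, r was 0.82 for *Spp1*, 0.71 for *Tapt1*, 0.61 for *Kif3c*, 0.41 for *Rfx2* and 0.30 for *Slc15a2*. For the opposite genes it was -0.82 for *Acvr1*, -0.82 for *Napepld*, -0.66 for *Mlh3*, -0.63 for *Plcb2* and -0.30 for *Jmjd8*. These genes were picked by r over the same 16 libraries, so the values after removal carry that choice too. *Slc15a2* had 18.3 ± 8.36 CPM in wild-type DMSO and 0.512 ± 0.593 in Cdk8-ko DMSO. Among the other 7 phosphodiesterases r with *Pde4d* ran from -0.33 (*Pde4a*) to 0.24 (*Pde7a*).

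The 8 transcripts can be told apart by sequence. No run of 50 bases, the read length, was shared between any of the 8 genes, and the share of such runs found in other genes was 1.01% for *Pde4c*, 0.154% for *Pde3b*, 0.0256% for *Pde7a* and 0% for the other 5. *Pde7a* shares 48 exon bases with the antisense gene *Gm16093*, which had 3 to 17 counts per library.

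Promoter windows from RefSeq, from 250 bases before to 50 after a start on GRCm38.p6, were matched for 6 of the 8 genes, with 11 windows in all. They were searched on both strands for the cyclic AMP response element TGACGTCA, found in 1.79% of 32851 windows, and for its shorter form TGACG, which lies within it and was found in 20.8%. None of the 11 windows held TGACGTCA. TGACG was present in 1 of 3 *Pde4a* windows, 1 of 4 *Pde4b* windows and the *Pde8a* window. The *Pde4a* window with the match (chr9:21183851-21184150, plus strand) is shown because *Pde4a* was the gene that passed for Senexin B, and the *Pde4d* window (chr13:108653927-108654226, plus strand) because *Pde4d* defined the list. Capitals mark TGACG read on the opposite strand at positions 201 to 205, and a match is a description of letters only.
Pde4a: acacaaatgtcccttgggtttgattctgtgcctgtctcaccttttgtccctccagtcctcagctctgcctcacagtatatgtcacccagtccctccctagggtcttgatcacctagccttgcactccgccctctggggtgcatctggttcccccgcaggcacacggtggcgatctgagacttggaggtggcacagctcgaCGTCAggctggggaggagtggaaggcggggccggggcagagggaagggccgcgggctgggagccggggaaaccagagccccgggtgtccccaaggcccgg
Pde4d: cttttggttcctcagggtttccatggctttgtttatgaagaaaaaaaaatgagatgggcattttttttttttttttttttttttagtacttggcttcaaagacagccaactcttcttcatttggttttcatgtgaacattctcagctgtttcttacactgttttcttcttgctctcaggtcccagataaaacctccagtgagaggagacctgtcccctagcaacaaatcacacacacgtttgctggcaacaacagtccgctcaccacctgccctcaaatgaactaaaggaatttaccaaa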

How the data were processed

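The deposited unit is the raw count per gene, which the authors made with featureCounts 1.5.1 after Trimmomatic trimming and STAR mapping to GRCm38. The counting used no strand option. It named a different annotation folder for wild-type line 1 with DMSO than for the other 15 libraries, with the same gene models listed. Without that library 1420 of 13420 genes had an unadjusted p under 0.05 between genotypes with DMSO (edgeR), against 701 of 13174 with it. Leaving out each other DMSO library gave 487 to 840. With Senexin B the count was 202 of 13010 genes. Without the Senexin B library of wild-type line 1, which named the common folder, it was 400 of 13459. Leaving out each other Senexin B library gave 147 to 373. The cause was not tested. Symbols were found for 50376 of 50686 gene identifiers. Groups and line numbers come from the labels.

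Counts were fitted over all genes with edgeR 4.0.16 in R 4.3.3 (TMM factors, filterByExpr by group, robust quasi-likelihood test, Benjamini-Hochberg adjustment over all genes tested). The call limits were an absolute log2 difference over 1 and, after adjustment, p under 0.05. DESeq2 1.42.0, other size factors, other filters and limits, a block and leaving out each library were alternatives. RPKM divides TMM-scaled CPM by the exon length in the files.

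The same replicate number within a genotype was taken as the same line under both treatments, from the study's description. The labels do not say so outright. Deviations of same-numbered libraries from the group means correlated at 0.559 to 0.781 in wild-type and 0.765 to 0.872 in Cdk8-ko lines over 14164 genes. The line was therefore used as a block for Senexin B, as an alternative to the planned fit without one, and 1 of 8 genes passed over 8 lines with the block. Senexin B values given without mention of the block come from the planned fit, which does not compare each line with itself. With the block over 8 lines *Pde4d* was 0.12 (SE 0.08), *Pde7a* 0.02 (SE 0.08) and *Pde7b* 0.75 (SE 0.42).

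The 8 genes, the pathway lists and the markers were chosen with earlier results of these data known, and the fall in *Pde4a* counts was seen before its test was run. Named from each list were genes with an unadjusted p under 0.05, at most 3 per direction, in fits with or without the block, and the most abundant gene. The text gives only some of these genes. Among those left out, the PDE4 partner *Arrb1* was lower in 8 of 8 lines (log2 -0.37, SE 0.10; edgeR with the block, adjusted p 0.086). The G alpha subunit gene *Gnal* was higher in 8 of 8 (log2 0.47, SE 0.13; edgeR with the block, adjusted p 0.0956). *Pde11a* was named from the fit with the block alone (unadjusted p 0.0522 without it). Drawn from the rule as well were the nearest 3 genes on each side of *Pde4d* and the 5 most and 5 least like it. Genes in the order shared by 9 genes were named after their values were seen.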

Additional observations from a re-analysis of the deposited data

Results flagged for a closer look

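In 5 of 32 gene and group combinations the highest of 4 lines stood far from the other 3. The measure is the gap to the next line over the group's whole range, with the 5% Dixon limit for 4 values. Chance gives about 1 in 20 groups. For *Pde7b* the gap was 0.926 of the range in wild-type DMSO and 0.879 in wild-type Senexin B, both in line 4. For *Pde7a* it was 0.858 in wild-type DMSO and 0.868 in wild-type Senexin B, both in line 2. For *Pde4a* it was 0.849 in Cdk8-ko Senexin B, in line 1. The 2 libraries of a line are not independent, so the 5 combinations come from 3 lines. The cause was not tested.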

How the results depend on the processing

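The number of the 8 genes called kept to its value in 109 of 110 alternatives. The exception was Senexin B over 8 lines, where the count was 0 without and 1 with the line as a block, which was *Pde4a* at -1.47. In the main edgeR fits at most 1 of all genes tested was called in any comparison. A count of 0 of 8 could therefore hardly move, and its constancy shows no stability. The 110 also include the genotype comparisons and the interaction over all 8 genes, from which no call is used. Among the 8 genes the block changed no other call for Senexin B. Outside them edgeR called *Ptger2* and *Vipr1* over 8 lines only with the block, and its calls over all genes went from 0 to 134. Across genotypes lines share only a number, and the deviations correlated at a mean of 0.00963 with DMSO and 0.123 with Senexin B. Leaving out each line from the blocked *Pde4a* fit was chosen after seeing the data.

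A change of sign was counted as a reversal only where the value exceeded its SE or was called. There were 2 among the log2 differences, both when a single library was left out. *Pde7b* between genotypes with DMSO was -1.50 and ran from -2.43 to 0.63, positive without wild-type DMSO line 4. *Pde4a* between genotypes with Senexin B was 0.80 and ran from -0.06 to 1.05, negative without Cdk8-ko Senexin B line 1. In 15 other cases a left-out library moved a difference by more than 1 SE, and 757 log2 differences and 32 levels per length moved less. *Pde4d* between genotypes ran from -0.73 to -0.59 with DMSO and from -1.01 to -0.77 with Senexin B over 15 fits each. Since these same values chose *Pde4d*, its ranges are a description and show no stability. *Pde4a*, *Pde4c* and *Pde7b* fell to 9, 10 and 6 counts in their lowest libraries, so their single-line ratios are imprecise.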
